A study of Mus musculus with 6 samples.

Results

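The genes described here act in mitosis: 49 genes for the kinases and cyclins that drive division, the spindle checkpoint, the kinetochore, the mitotic motors, cytokinesis and the compaction of chromosomes. They were taken from a list of symbols drawn up by function, with earlier results of these data known. Of the 49 genes, 47 were measured through a transcript cluster that the platform annotation gives a single symbol, out of 22180 such genes in all. A transcript cluster is a set of array probes that together give 1 value. A gene can have more than 1 cluster, and a cluster can carry several symbols or none. The other 2 were left out: Ncapg shares its cluster with Lcorl, and Ccnb1 was not analysed here. No filter on low values was applied, so all 47 genes were tested.

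RNA from halved kidneys of adult mice was hybridised to Mouse Gene 2.1 ST arrays from Affymetrix (1 for each sample), and the study asked which transcripts change after loss of the transcription factors Pax2 and Pax8 in the adult. The 3 arrays labelled Pax28 dKO (replicates 1, 3 and 5, called dKO below) stand for mice with floxed Pax2 and Pax8 alleles on both chromosomes and a tamoxifen-activated Cre recombinase at the Rosa26 locus, a locus active in nearly all cell types. The 3 arrays labelled Control (replicates 2, 4 and 6) stand for mice without Cre. Both groups received tamoxifen, 3 injections of 50 mg/kg in week 8 of life and 3 more in week 10, with tissue collected 14 days later. There were 2 females and 1 male per group, and the male arrays were dKO 1 and Control 4. Whether every array stands for a mouse of its own is not stated, so the spread behind each p-value may in part be technical.

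A cell that enters mitosis has raised a large set of transcripts together, which fall to very low levels in resting cells. Cyclin-dependent kinase 1 with A and B cyclins starts the process, Polo and Aurora kinases build the spindle, and kinetochores on each centromere attach to its microtubules. The spindle checkpoint holds the anaphase-promoting complex (APC/C) until all chromosomes are attached, after which separase cuts cohesin and the cell divides. Most epithelial cells of the adult kidney tubule rest outside the cell cycle and can re-enter it after injury.

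The targeted genes were read first. Pax8 stood at 10.11, 10.59 and 10.39 log2 on dKO 1, 3 and 5, against 9.09, 9.0 and 8.89 on Control 2, 4 and 6, so it was higher on the arrays labelled dKO (adjusted p = 0.0037, limma). Pax2 stood at 6.11, 6.49 and 6.16 log2 on the dKO arrays and at 6.09, 5.77 and 6.08 on the controls, and did not pass (adjusted p = 0.19). Each gene has a single cluster and the removed exons are not given, so these values do not check the labels, and every direction below is that of the arrays labelled dKO. Kidney markers were above background on all 6 arrays: of 8 measured, none had a value near it, and the uromodulin gene Umod lay between 11.41 and 11.88 log2. Of these 8, none rose and 3 fell (Cdh16, Slc34a1 and Aqp2) at an adjusted p below 0.05 (limma), as described with the other markers at the end. In whole kidney RNA, more cycling cells and more mitotic RNA per cell cannot be told apart.

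Mitotic transcripts were higher on the arrays labelled dKO. Of the 47 genes, 37 rose, none fell and 10 did not pass, at an adjusted p below 0.05 from limma's fit over all genes. Over all 22180 genes, 7.2% were called, 4.12% higher and 3.08% lower. At an unadjusted p below 0.05, 42 of the 47 genes were higher and none was lower, against 2565 higher and 2324 lower of all 22180 genes. The median log2 fold change of the 47 genes was 1.01, against -0.01 for all genes. By fitted value 24 of them passed with a rise of at least 2-fold, against 0.861% of all genes, and 21 did so when genes near background in the controls are counted by the lower bounds described below. In 40 of the 47 genes all 3 dKO arrays lay above all 3 controls, an arrangement seen in 11.7% of all genes, and in the other 7 the groups overlapped.

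**Figure D1:**
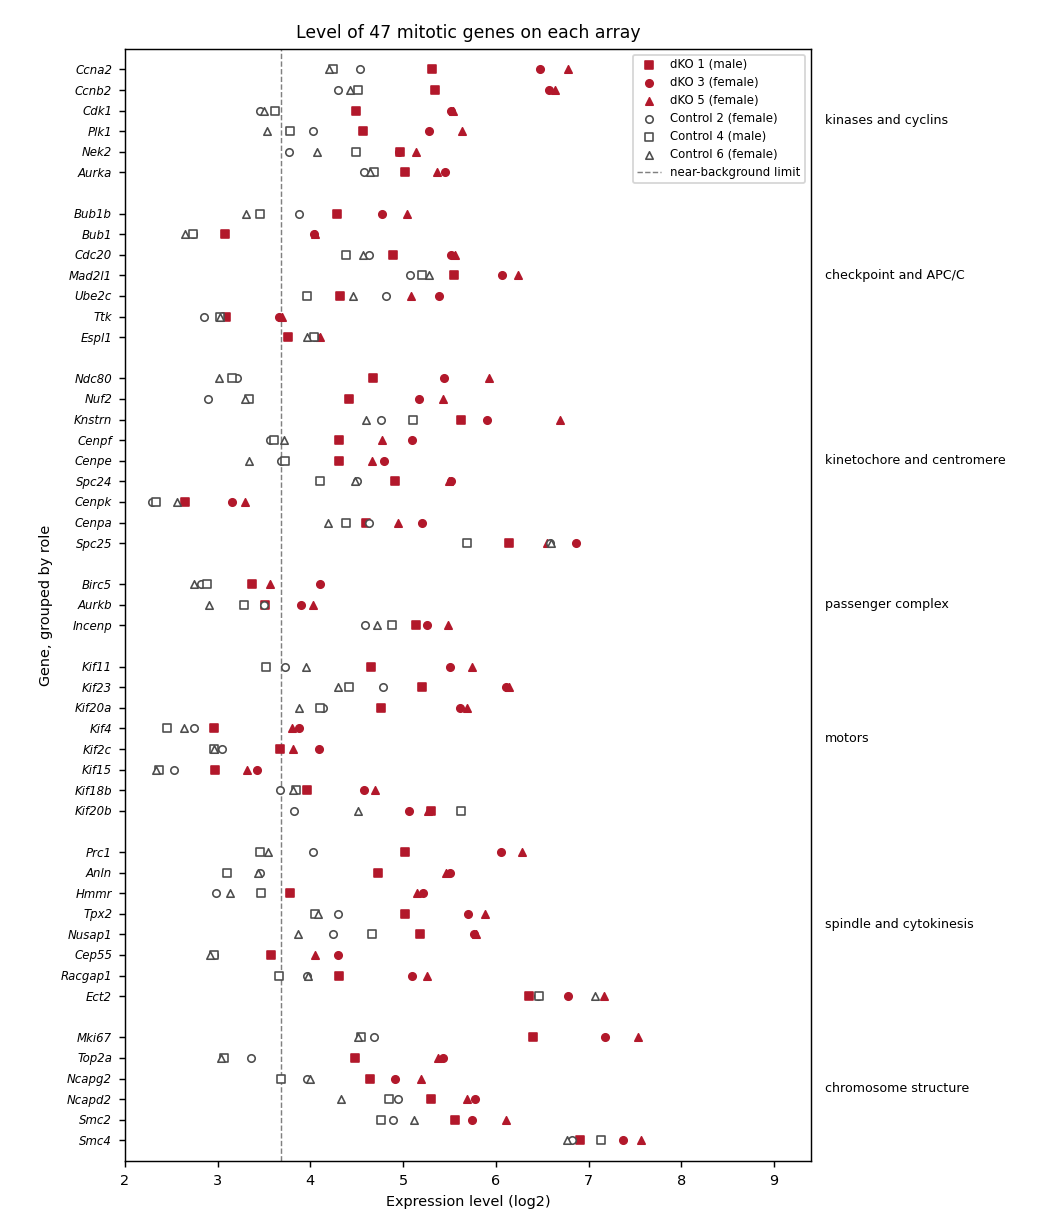
Log2 expression level (horizontal axis) of 47 mitotic genes, grouped by role, on each of the 6 arrays; filled red symbols are dKO arrays, open symbols controls, and the dashed line is the near-background limit of 3.69 log2. In 40 genes the red symbols all lie to the right of the open ones, and dKO 1 is the leftmost red symbol in 45.

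Many of these transcripts were close to the floor of the array in the controls. As a guide, 1390 olfactory and vomeronasal receptor genes were taken to stand for genes not expressed in kidney, and 95% of them had a control mean below 3.69 log2. By that limit 19 of the 47 genes were near background in the controls and 5 were also near it on the dKO arrays (Ttk, Cenpk, Birc5, Kif4 and Kif15). A gene near background only in the controls has no measured fold. It is given below as "at least" a fold, counted from the limit to the dKO mean. Such a bound makes no allowance for the spread between arrays, so it is not the lower end of an interval. For Prc1 the bound was 2.10 log2, while the 95% interval of its fitted change began at 1.62. Just inside the limit lay Prc1, with a control mean of 3.68, and just outside it Kif11, with 3.73. Of the 28 genes above the limit, 20 rose. The median log2 fold change over these 28 was 0.89. Over all 47 genes it was 0.91 with bounds in place of fitted values for the 14 genes that have a bound. The 5 genes near background in both groups kept their fitted values there.

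Among the kinases and cyclins 6 of 6 measured genes rose. Cyclin A2 (Ccna2, Entrez gene 12428), which acts from S phase into early mitosis, had 5.31, 6.48 and 6.78 log2 on dKO 1, 3 and 5, against 4.54, 4.25 and 4.20 on Control 2, 4 and 6. The groups did not overlap, and the dKO arrays averaged 6.19 ± 0.78 against 4.33 ± 0.18 in controls (SD, n = 3 each), a 3.64-fold rise with a log2 fold change of 1.86 ± 0.25 (SE; limma adjusted p = 0.012). Cyclin B2 (Ccnb2, Entrez gene 12442), a partner of Cdk1 at mitotic entry, had 5.34, 6.57 and 6.64 log2 on the dKO arrays and 4.30, 4.51 and 4.43 on the controls, and rose 3.41-fold. Cdk1 itself (Entrez gene 12534) had 4.50, 5.52 and 5.54 log2 against 3.46, 3.62 and 3.50 in controls. Its control mean of 3.53 lay near background, so the rise was at least 2.82-fold (limma adjusted p = 0.012). In all of these genes the male array dKO 1 was the lowest of the dKO arrays by about 1 log2 unit and still lay above every control.

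The remaining kinases also rose. Plk1, the Polo kinase of spindle assembly and mitotic exit, had 4.56, 5.28 and 5.63 log2 on the dKO arrays against 4.03, 3.79 and 3.53 in controls, a 2.59-fold rise. The centrosome kinase Nek2 was at 4.97, 4.96 and 5.14 log2 on the dKO arrays and 3.77, 4.49 and 4.08 on the controls, a 1.88-fold rise. Aurka, the Aurora kinase of the spindle poles, rose 1.56-fold, with a log2 fold change of 0.64 ± 0.11 (SE; limma adjusted p = 0.024). Nek2 was one of 2 genes, with Kif20b, in which dKO 1 was not the lowest dKO array.

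**Figure D2:**
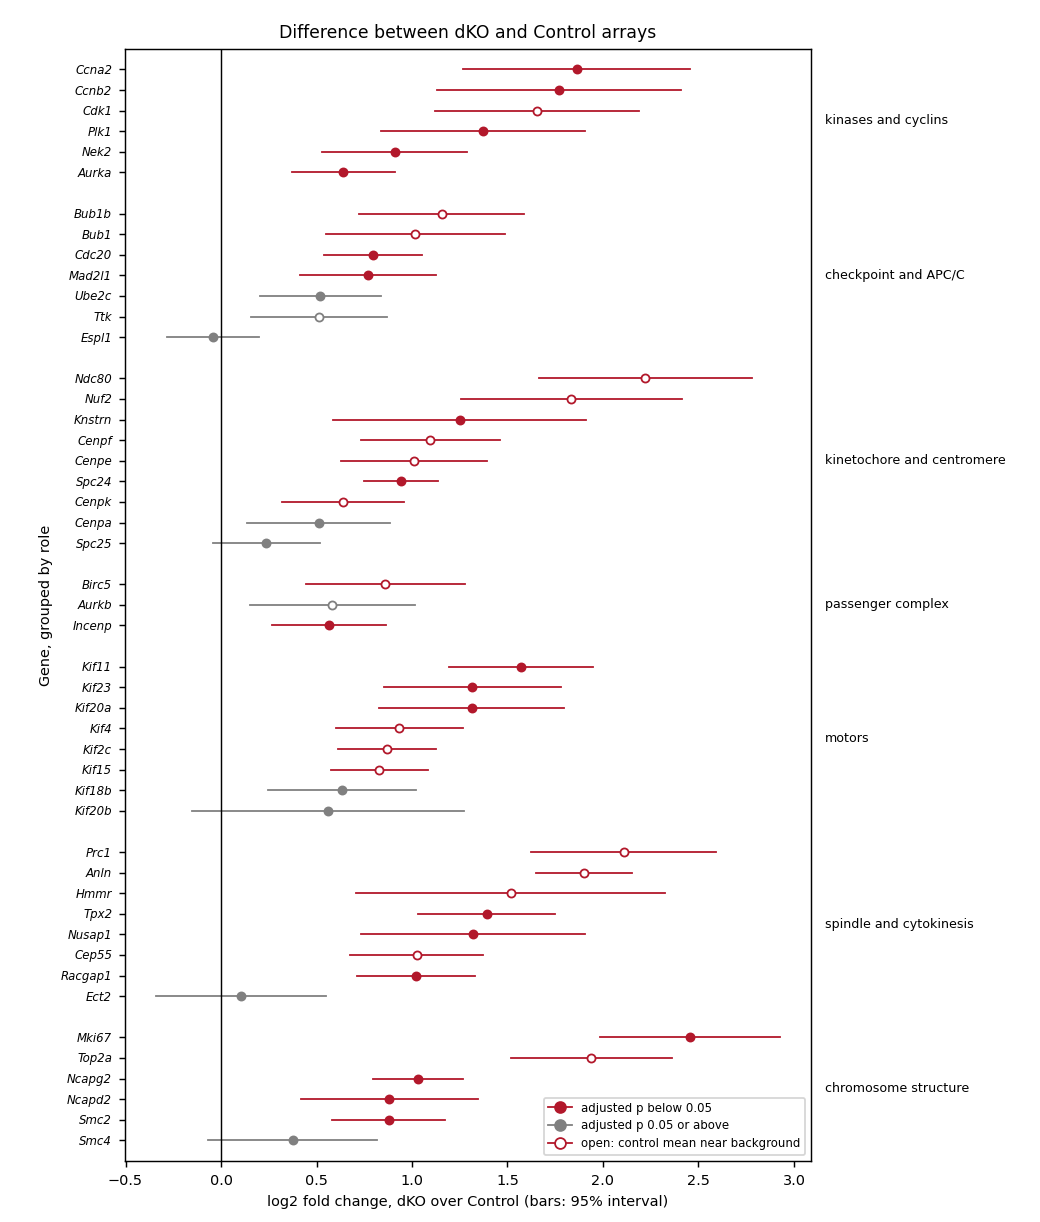
Log2 fold change of each of the 47 genes, dKO over Control, with its 95% interval from limma; red marks the 37 genes with an adjusted p below 0.05, grey the 10 others, and open symbols the 19 genes whose control mean was near background. Mki67 lies farthest to the right at 2.46, and Espl1 is the 1 gene left of 0, at -0.04.

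The promoters of 5 of these genes are shown because they share 2 short motifs known from mitotic genes. One is the core of the cell cycle homology region (CHR), TTTGAA or TTTAAA, which the DREAM and MuvB complexes bind in mammalian cells to repress these genes at rest and, with other partners, to activate them before mitosis. The other is the CCAAT box, bound by the factor NF-Y. The sequences are from RefSeq (GRCm38.p6) and run 5′ to 3′ on the strand of the gene, from 170 bases before the annotated start to 30 bases after it, with both motifs in capitals. Both strands were searched, so the CHR core also appears as TTCAAA and the CCAAT box as ATTGG. No CHR core overlaps a CCAAT box in them.
Cdk1 (chr10:69352883-69353082, minus strand): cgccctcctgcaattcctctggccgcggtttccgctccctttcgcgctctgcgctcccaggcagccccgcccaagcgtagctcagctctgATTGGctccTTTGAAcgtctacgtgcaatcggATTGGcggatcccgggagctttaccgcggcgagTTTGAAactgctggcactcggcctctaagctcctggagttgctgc
Ccnb2 (chr9:70421525-70421724, minus strand): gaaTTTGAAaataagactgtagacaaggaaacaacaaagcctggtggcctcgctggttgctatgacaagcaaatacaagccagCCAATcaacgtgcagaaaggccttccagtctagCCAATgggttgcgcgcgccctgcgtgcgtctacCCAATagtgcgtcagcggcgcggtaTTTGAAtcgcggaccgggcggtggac
Plk1 (chr7:122159265-122159464, plus strand): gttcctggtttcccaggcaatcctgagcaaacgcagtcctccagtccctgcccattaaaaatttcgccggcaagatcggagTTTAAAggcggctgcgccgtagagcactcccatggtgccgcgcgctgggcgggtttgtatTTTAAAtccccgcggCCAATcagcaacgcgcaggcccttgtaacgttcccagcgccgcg
Top2a (chr11:99024160-99024359, minus strand): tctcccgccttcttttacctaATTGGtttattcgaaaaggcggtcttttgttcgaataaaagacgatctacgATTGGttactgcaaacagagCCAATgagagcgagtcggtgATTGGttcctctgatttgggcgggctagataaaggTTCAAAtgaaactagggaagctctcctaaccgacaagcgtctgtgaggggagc
Espl1 (chr15:102296123-102296322, plus strand): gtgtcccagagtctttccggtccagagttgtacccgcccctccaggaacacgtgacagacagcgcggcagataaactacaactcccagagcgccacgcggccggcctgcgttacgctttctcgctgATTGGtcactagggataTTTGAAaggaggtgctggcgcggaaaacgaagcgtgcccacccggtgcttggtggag

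In Ccnb2 the CCAAT boxes begin 87, 54 and 21 bases before the start, and a CHR core begins at base 5 after it. In Cdk1 a CHR core begins 15 bases before the start and in Plk1 29 bases before it. Over the whole RefSeq window, from 250 bases before the start to 50 after it, 33 of the 40 mitotic genes with a window held a CHR core (82.5%), against 27.4% of 16918 tested genes with a window. A CHR core that begins within 50 bases of the start was present in 29 of the 40 (72.5%) and in 7.9% of all. A CCAAT box was present in 28 of the 40 (70.0%) and in 41.6% of all, and both motifs in 62.5% and 11.1%. Genes that rose and genes that did not pass both held it: 25 of 32 genes that rose and 8 of 8 that did not pass held a CHR core. Separase, Espl1, with a log2 difference of -0.04, carries it 27 bases before its start. These are matches of letters and say nothing of what was bound.

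Spindle checkpoint genes rose in part. Bub1b, the checkpoint kinase-like protein BubR1, had 4.29, 4.78 and 5.04 log2 on dKO 1, 3 and 5, against 3.88, 3.46 and 3.31 on Control 2, 4 and 6, a rise of at least 2.03-fold. Cdc20, the APC/C activator that the checkpoint inhibits, rose 1.74-fold, at 5.33 ± 0.37 log2 on the dKO arrays and 4.53 ± 0.13 on the controls (SD, n = 3 each; limma adjusted p = 0.012). Mad2l1, which forms the inhibitor of Cdc20, rose 1.71-fold. Bub1 had 3.08, 4.04 and 4.05 log2 on the dKO arrays and 2.65 to 2.73 on the controls, at least 1.03-fold higher (limma adjusted p = 0.031).

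The other 3 genes of this group did not pass. The checkpoint kinase gene Ttk, near background in both groups, averaged 3.48 log2 on the dKO arrays and 2.97 on the controls (limma adjusted p = 0.094). Ube2c, the ubiquitin-conjugating enzyme of the APC/C, had 4.32, 5.38 and 5.08 log2 on the dKO arrays against 4.81, 3.96 and 4.46 in controls, with overlapping groups (limma adjusted p = 0.07). Espl1, the protease separase that cuts cohesin, had 3.75, 4.06 and 4.10 log2 on the dKO arrays and 4.04, 4.04 and 3.97 on the controls. Its log2 difference of -0.04 had a 95% interval from -0.28 to 0.20, which leaves out a doubling.

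Kinetochore and centromere genes rose in 7 of 9 cases. The Ndc80 complex is the microtubule-binding arm of the kinetochore, built from Ndc80, Nuf2, Spc24 and Spc25. Ndc80 (Entrez gene 67052) had 4.68, 5.44 and 5.92 log2 on dKO 1, 3 and 5, against 3.21, 3.15 and 3.01 on Control 2, 4 and 6, a rise of at least 3.16-fold (limma adjusted p = 0.006). Nuf2 had 4.42, 5.18 and 5.43 log2 on the dKO arrays and 2.89, 3.34 and 3.29 on the controls, at least 2.51-fold higher. In both genes the lowest dKO array lay more than 1 log2 unit above the highest control. Spc24 had 4.92, 5.52 and 5.49 log2 on the dKO arrays and 4.50, 4.11 and 4.49 on the controls, a 1.92-fold rise with a small error (log2 fold change 0.94 ± 0.08, SE; limma adjusted p = 0.0037).

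Spc25 was the member of that complex that did not pass. It had 6.14, 6.87 and 6.55 log2 on dKO 1, 3 and 5, against 6.58, 5.69 and 6.59 on Control 2, 4 and 6. The groups overlapped, and the log2 difference of 0.24 had a 95% interval from -0.04 to 0.52. Spc24 and Spc25 were the 2 genes of the 47 that passed for sex in the same fit, against 415 of all 22180 genes. They were lower in males by 0.49 and 0.73 log2 (limma adjusted p = 0.050 and 0.045), with 1 male array in each group.

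Of the other kinetochore genes, Cenpf, a large protein of the outer kinetochore, was at least 2.05-fold higher and Cenpe, a kinetochore motor, at least 1.87-fold. Knstrn, a spindle and kinetochore adaptor, rose 2.38-fold, with 5.63, 5.90 and 6.69 log2 on the dKO arrays and 4.76, 5.11 and 4.60 on the controls (limma adjusted p = 0.046). Knstrn is the 1 gene of the 47 with a second cluster, which lay between 2.39 and 3.04 log2 on all arrays with no order between the groups. When both clusters were averaged Knstrn no longer passed. Cenpk, of the inner kinetochore, passed with means of 3.03 log2 on the dKO arrays and 2.40 on the controls, both near background. Cenpa, the histone variant that marks centromeres, had 4.60, 5.20 and 4.94 log2 on the dKO arrays against 4.64, 4.38 and 4.20 in controls and did not pass (limma adjusted p = 0.11).

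The chromosomal passenger complex corrects faulty attachments and joins Aurora B with Incenp and survivin. Incenp, its scaffold, rose 1.48-fold, with 5.14, 5.26 and 5.48 log2 on the dKO arrays and 4.59, 4.89 and 4.72 on the controls (limma adjusted p = 0.045). Birc5, which encodes survivin, passed with means of 3.68 and 2.82 log2 on dKO and control arrays, both under the limit. Aurkb had 3.51, 3.90 and 4.03 log2 on the dKO arrays against 3.50, 3.28 and 2.91 in controls, barely without overlap, and did not pass (limma adjusted p = 0.11).

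Of the 8 mitotic kinesins measured in this group 6 rose. None of the kinesins in the list of other mitotic genes described below passed. These were Kif14, Kif18a, Kif22 and Kifc1, with log2 differences of 0.41, 0.44, 0.77 and 0.85 (limma adjusted p = 0.064, 0.11, 0.10 and 0.16). Kif11, the motor that pushes spindle poles apart, had 4.66, 5.51 and 5.74 log2 on dKO 1, 3 and 5, against 3.72, 3.52 and 3.95 on Control 2, 4 and 6, a 2.97-fold rise (log2 fold change 1.57 ± 0.16, SE; limma adjusted p = 0.0051). The midzone motors Kif23 and Kif20a rose 2.49-fold and 2.48-fold. The microtubule depolymerase gene Kif2c was at least 1.13-fold higher, and Kif4 and Kif15 passed with both group means under the near-background limit. Kif18b, at 4.41 ± 0.39 log2 on the dKO arrays and 3.78 ± 0.09 on the controls (SD, n = 3 each), did not pass (limma adjusted p = 0.07).

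Kif20b, a kinesin of late cytokinesis, behaved unlike the other motors on the control arrays. It had 5.31, 5.07 and 5.27 log2 on dKO 1, 3 and 5, against 3.82, 5.63 and 4.51 on Control 2, 4 and 6. The male control was thus the highest of all 6 arrays, the control SD of 0.91 was large, and the gene did not pass (limma adjusted p = 0.34).

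Spindle and cytokinesis genes rose in 7 of 8 cases. Prc1, which bundles the microtubules of the spindle midzone, had 5.02, 6.05 and 6.29 log2 on dKO 1, 3 and 5, against 4.03, 3.46 and 3.55 on Control 2, 4 and 6. The rise was at least 4.29-fold (limma adjusted p = 0.0047). Anln, the anillin scaffold of the cleavage furrow, had 4.73, 5.51 and 5.47 log2 on the dKO arrays and 3.46, 3.11 and 3.44 on the controls, at least 2.93-fold higher. It had the smallest adjusted p of the 47 genes (0.0013, limma). Tpx2, the activator of Aurora A on spindle microtubules, rose 2.62-fold, at 5.53 ± 0.45 log2 against 4.14 ± 0.13 in controls (SD, n = 3 each).

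Nusap1, a spindle-associated protein, rose 2.50-fold and the abscission protein gene Cep55 at least 1.22-fold. Hmmr, a spindle protein that also binds hyaluronan, had 3.78, 5.21 and 5.15 log2 on the dKO arrays and 2.99, 3.47 and 3.13 on the controls, a rise of at least 2.04-fold (limma adjusted p = 0.047). Racgap1, which forms the centralspindlin complex with Kif23, rose 2.03-fold. Ect2, the exchange factor that centralspindlin recruits to open the furrow, had 6.36, 6.77 and 7.17 log2 on the dKO arrays against 6.46, 6.47 and 7.07 in controls. Its groups overlapped, with a log2 difference of 0.10 and a 95% interval from -0.34 to 0.55 (limma adjusted p = 0.81).

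Of 6 measured genes for chromosome structure 5 rose. Mki67 (Entrez gene 17345), which encodes the Ki-67 coat of mitotic chromosomes, had 6.41, 7.18 and 7.53 log2 on dKO 1, 3 and 5, against 4.69, 4.54 and 4.52 on Control 2, 4 and 6. The lowest dKO array was 1.71 log2 above the highest control, and the 5.48-fold rise was the largest among the 28 genes above background in the controls. Top2a, the topoisomerase that untangles sister chromatids, had 4.48, 5.43 and 5.38 log2 on the dKO arrays and 3.36, 3.07 and 3.04 on the controls, at least 2.66-fold higher (limma adjusted p = 0.0041). Its relative Top2b, which resting cells express, stood at 7.50, 7.59 and 7.51 log2 on the dKO arrays and 7.45, 7.47 and 7.55 on the controls, a log2 difference of 0.04 with a 95% interval from -0.14 to 0.23.

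Of the condensin subunits measured in this group, all but Smc4 rose. Among those in the list of other mitotic genes described below, Ncaph rose (log2 fold change 1.06). Ncaph2 (0.23) and Ncapd3 (0.02) did not pass. Ncapg2, of condensin II, rose 2.04-fold, with 4.64, 4.92 and 5.19 log2 on the dKO arrays and 3.97, 3.69 and 4.0 on the controls (limma adjusted p = 0.0045). Ncapd2, of condensin I, and Smc2, an ATPase of both condensins, each rose 1.84-fold. Smc4, the partner of Smc2, had 6.90, 7.37 and 7.57 log2 on the dKO arrays against 6.82, 7.13 and 6.77 in controls, with overlapping groups (log2 difference 0.37, 95% interval from -0.07 to 0.82).

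The 3 dKO arrays did not show the rise to the same extent. The median deviation of the 47 genes from their control means was 0.63 log2 on dKO 1, 1.22 on dKO 3 and 1.14 on dKO 5, while the controls lay at 0.06, 0.00 and -0.04. The male array dKO 1 was the lowest dKO array in 45 of the 47 genes, against 40.8% of all genes. The difference between the males alone was positive in 43 of the 47 genes, with a median of 0.58 log2, against a median of 1.15 in the females. Over the 28 genes above background in the controls these medians were 0.52 in the males and 1.04 in the females. The difference was smaller in the males than in the females in 46 of the 47 genes (all but Spc25), against 50.3% of all genes.

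A genotype by sex term called none of the 47 genes (limma, smallest adjusted p = 0.11, for Hmmr, near background in the controls). At an unadjusted p below 0.05 it marked 30 of the 47, against 1551 of 22180 genes. Among the genes above background in the controls Ccnb2 had the largest gap, with 0.83 log2 between the males and 2.24 between the females, and Mki67 had 1.86 and 2.75. With 1 male array in each group, the sex and the single array cannot be told apart.

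**Figure D3:**
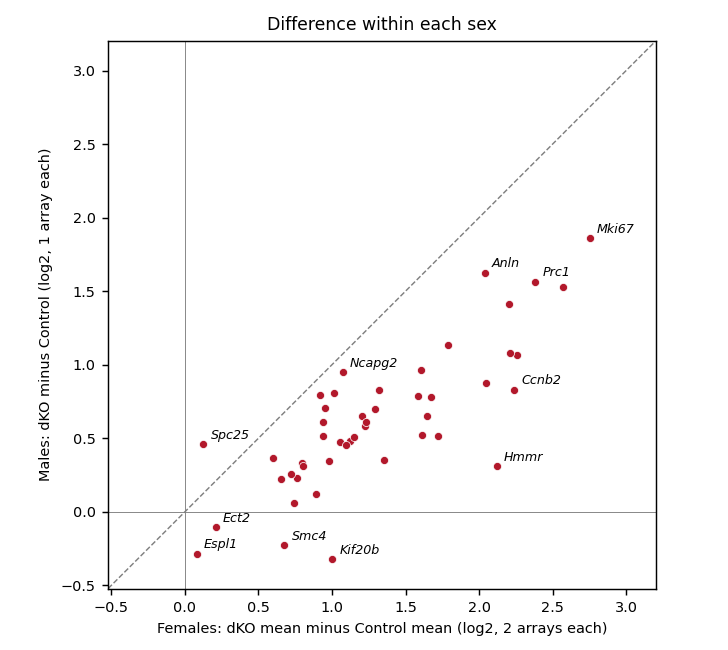
Difference between dKO and Control on the log2 scale for each of the 47 genes, in the females (horizontal axis, means of 2 arrays each) and in the males (vertical axis, 1 array each); the dashed line marks equal differences. All genes but Spc25 lie under the line, and 4 lie below 0 in the males.

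How many genes passed depended on single arrays. Of the 37 genes, 9 passed with any single array left out: Mki67, Top2a, Ndc80, Spc24, Kif11, Prc1, Anln, Tpx2 and Ncapg2. Without Control 2 the count was 10, without Control 6 it was 14, without dKO 5 it was 18 and without dKO 3 it was 20, in fits that also called fewer genes overall (344, 356, 529 and 613, against 1596 with all arrays). Without either male array it was 40. Without sex in the model it was 20, and Spc24 was then the 1 gene of those 9 that did not pass. Of the others, Ccna2, Kif2c and Kif15 lost their calls without Control 2 and Nuf2 without Control 6. Cdk1, Cdc20, Cenpf, Racgap1 and Smc2 lost theirs without either of these controls. Another 4 genes (Bub1b, Birc5, Kif23 and Cep55) did so in 3 of the 6 fits and the other 15 in 4 of them, with adjusted p-values up to 0.17. In these 6 fits the median log2 fold change lay between 0.92 and 1.15, and no gene of the 47 was called lower.

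Of 64 other measured genes of kinetochore, spindle and mitotic control, 23 rose and 1 fell, with a median log2 fold change of 0.46; the 23 became 6 without Control 2 and 5 without Control 6. Ckap2, a spindle protein, was at least 2.50-fold higher, Gtse1, a microtubule-binding protein, at least 2.12-fold, and Ska3, of the outer kinetochore, passed at means of 3.58 and 2.82 log2 on dKO and control arrays. The gene that fell was Pttg1, which encodes securin, the inhibitor of separase. It had 4.73, 4.64 and 4.89 log2 on dKO 1, 3 and 5, against 6.0, 5.92 and 5.82 on Control 2, 4 and 6, and was 2.23-fold lower (log2 fold change -1.16 ± 0.10, SE; limma adjusted p = 0.0037). The groups were more than 0.9 log2 apart, the differences in males and females were nearly equal at -1.19 and -1.14, and the call held with any single array left out. Without sex in the model Ckap2 and Gtse1 did not pass (limma adjusted p = 0.069 and 0.081).

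The constitutive subunits of the APC/C and the repressor machinery were read beside them. Of 15 APC/C core genes none passed (limma; 1 higher and 1 lower at an unadjusted p below 0.05), with log2 fold changes between -0.30 and 0.20. Of 11 DREAM and MuvB genes, which hold mitotic genes silent at rest, none passed (2 higher and 1 lower unadjusted), with a median of -0.07. Among 7 transcriptional regulators of the cell cycle 3 rose. E2f8, a repressor of the E2F family that is made in S phase, had 4.0, 4.34 and 4.65 log2 on the dKO arrays against 2.67, 2.37 and 2.92 in controls, at least 1.56-fold higher. Foxm1, the activator of late cell cycle genes, rose 1.39-fold. Its call was lost in each of the 6 fits that drop an array (limma adjusted p up to 0.10), and so was that of E2f7. Mybl2, which turns MuvB into an activator, had means of 3.75 and 3.64 log2 on dKO and control arrays and did not pass.

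**Figure D4:**
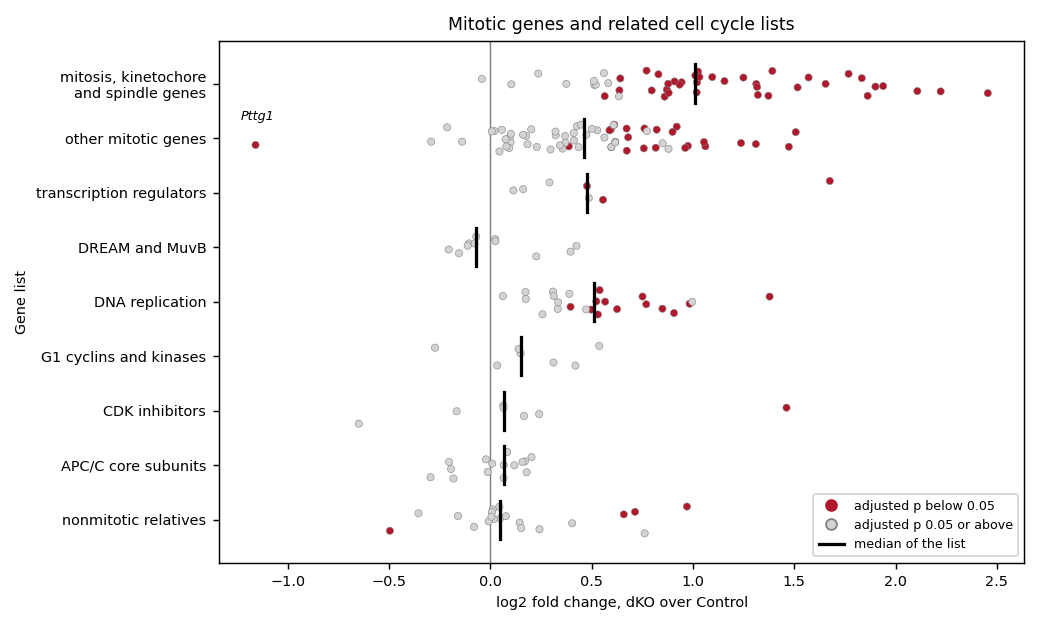
Log2 fold change, dKO over Control, of every measured gene in 9 lists of cell cycle genes (1 point per gene, red where the adjusted p is below 0.05, black bar at the list's median). The mitosis list has a median of 1.01, APC/C core and DREAM genes lie around 0, and Pttg1 is the red point at -1.16.

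Genes of earlier phases were also measured. Of 24 DNA replication genes, 13 were higher and 0 lower (median log2 fold change 0.51). The 4 with the smallest p were the helicase subunit gene Mcm5 (log2 fold change 1.38 ± 0.08, SE), the polymerase gene Pola1 (0.75), the ligase gene Lig1 (0.98) and the sliding clamp gene Pcna (0.53). Pcna did not pass without sex in the model (limma adjusted p = 0.13) or in 4 of the 6 fits that drop an array, and Lig1 did not pass without dKO 5 or Control 6 (0.055 and 0.061). None of 7 G1 cyclin and kinase genes passed (limma; 3 higher at an unadjusted p below 0.05). Of 7 CDK inhibitors 1 rose, Cdkn1a (p21), with 7.32, 8.60 and 8.57 log2 on dKO 1, 3 and 5, against 7.04, 6.36 and 6.70 on Control 2, 4 and 6, a 2.75-fold rise that did not pass without sex in the model (limma adjusted p = 0.091). Like the mitotic genes it was lowest on dKO 1 among the dKO arrays. Among 20 relatives of the mitotic genes that are in neither mitotic list, 3 rose (Birc3, Nek6 and Ccng1), Kif21a fell and the median was 0.05. None of these 4 passed without sex in the model (limma adjusted p from 0.053 to 0.20) or without Control 2 (0.051 to 0.15), and Kif21a passed in none of the 6 fits that drop an array.

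Among markers of other cells, most myeloid and fibroblast ones rose, while most lymphocyte ones did not pass and no endothelial one did. Of 12 macrophage and myeloid markers 9 rose, among them Cd14, Ly86, Cd68 and C1qb, none was near background, and their mean level was 6.47, 6.75 and 7.25 log2 on dKO 1, 3 and 5, against 5.63, 5.49 and 5.56 on Control 2, 4 and 6. Their median deviation from the control mean was 0.87, 1.20 and 1.71 log2 on dKO 1, 3 and 5. It was lowest on dKO 1, like that of the mitotic genes, and higher on dKO 5 than on dKO 3. The mitotic median was 1.22 log2 on dKO 3 and 1.14 on dKO 5. By gene, however, 30 of the 47 were highest on dKO 5 among the dKO arrays and 16 on dKO 3. Over all genes, 33.2% were highest on dKO 5. Of 7 fibroblast markers 5 rose, among them Col1a1, Col3a1, Col1a2 and Dcn, with mean levels of 7.49 to 7.87 log2 on the dKO arrays and 6.47 to 7.05 on the controls. Of 11 lymphocyte markers 3 rose (Cd4, Jchain and Ighm), and Cd3d and Ms4a1 were near background. Their mean level was highest on dKO 1, at 5.35, 4.86 and 5.05 log2 on dKO 1, 3 and 5, against 4.68 to 4.99 on the controls. The groups overlapped for Jchain and Ighm, which did not pass without sex in the model or in the females alone. None of 7 endothelial markers passed (limma; 1 lower unadjusted).

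Kidney and fat markers were also read. Of the 8 kidney markers 3 fell, with log2 fold changes of -0.59 for Cdh16, a cadherin of the tubule, -0.47 for the phosphate transporter gene Slc34a1 and -0.88 for the water channel gene Aqp2, and none of these 3 passed without Control 2 or without Control 6. At an unadjusted p below 0.05 (limma), 5 of the 8 were lower and 2 were higher, among them Umod (log2 fold change 0.31). None of 6 fat markers passed (limma; 0 at an unadjusted p below 0.05), but the 2 female controls stood apart. The mean levels were 5.24, 5.44 and 4.62 log2 on dKO 1, 3 and 5, against 6.38, 4.43 and 6.20 on Control 2, 4 and 6. Ucp1, the uncoupling protein of brown fat, had 5.12, 4.74 and 3.87 log2 on the dKO arrays and 7.77, 3.53 and 7.53 on the controls, and it was called lower in the females alone (log2 fold change -3.35, limma adjusted p = 0.0052). Control 2 and Control 6 are also the arrays without which the fewest mitotic genes passed. The part of any of these cells in the mitotic signal was not tested.

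**Figure D5:**
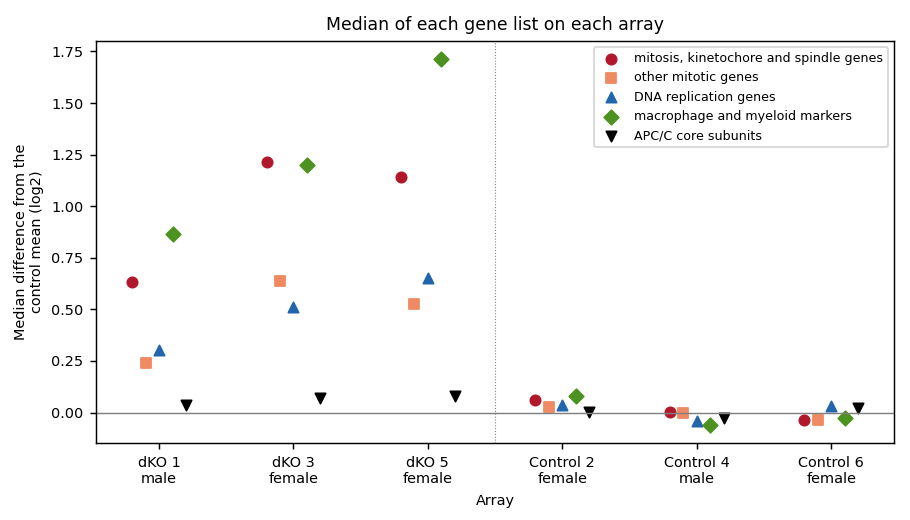
Median difference from the control mean (log2, vertical axis) of 5 gene lists on each array (horizontal axis). Mitotic, replication and myeloid lists are above all controls on the 3 dKO arrays and lowest of these on dKO 1, while APC/C core subunits lie between -0.03 and 0.08.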

How the data were processed

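Total RNA (400 ng per array) was labelled as cDNA and hybridised to 6 arrays. The authors deposited a log2 value for each transcript cluster and array. The submitters' processing notes list RMA, limma and R 3.4.0 but give none of them a role. Filters and a genome build were not given in the sources used here. Medians per array lay between 3.81 and 3.87 log2. The authors' log2 values were used unchanged.

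Of 41345 clusters, 23521 had 1 gene symbol. The cluster with the highest mean was kept per gene, which gave 22180 genes. Differences (dKO minus Control) were fitted with limma 3.58.1 in R 4.3.3, with genotype and sex as terms and default moderation (3 residual degrees of freedom), with Benjamini-Hochberg adjustment over all genes and a threshold of 0.05. The fit was tested on simulated data. The 6 arrays limit the precision. The named genes are all measured members, Pax2 and Pax8, and up to 4 passing genes of each other list with the smallest p. For cell type markers too, up to 4 passing genes a list are named. Top2b, Mybl2, Umod, Cd3d, Ms4a1, Ucp1, Ncaph, Ncaph2, Ncapd3, Kif14, Kif18a, Kif22 and Kifc1 were added after their values were seen. The members and lists were chosen with earlier results of these data known. Promoter windows came from RefSeq, and 7 of the 47 genes had none.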

Additional observations from a re-analysis of the deposited data

Results flagged for a closer look

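In 4 genes (Espl1, Kif20b, Smc4 and Ect2) the mean difference was positive in the females and negative in the males. In all but Ect2, whose female arrays overlapped, both female dKO arrays lay above both female controls while the male dKO array lay below the male control. The difference between the sexes (male minus female log2 difference) was -1.32 for Kif20b (limma unadjusted p = 0.017, adjusted p = 0.62), -0.91 for Smc4 (unadjusted p = 0.0036, adjusted p = 0.53) and -0.37 for Espl1 (unadjusted p = 0.075, adjusted p = 0.75). None passed after adjustment, and each group holds 1 male array.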

How the results depend on the processing

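No paired analysis was possible because the groups share no replicate number. The count of mitotic genes called higher (37 of 47) ranged from 10 to 40 with single arrays left out, that of all genes (1596) from 344 to 1249 and that of other mitotic genes (23) from 5 to 26. Leaving out either male array gives the same fit as the females alone. Without sex in the model the counts were 20, 471 and 8, and with every row of the table tested 9, 302 and 4; with a trended prior, array weights, quantile normalization, median centring, dim genes removed or averaged clusters they stayed within 1.5 times. The median log2 fold change of the mitotic genes in each fit stayed between 0.92 and 1.15 under all alternatives. With dim genes removed, Bub1, Ttk, Cenpk, Aurkb, Birc5, Kif2c, Kif4, Kif15 and Cep55 were not in the fit. Its count of 30 mitotic genes and its median of 1.06 therefore leave them out. Of the 37 called genes, 8 passed under all of them, and none changed sign. Among genes that did not pass, Espl1 turned to 0.080 in females alone and without dKO 1 or Control 4, and Ect2 to -0.10 without Control 2 and -0.040 without dKO 5 (0.25 without Control 6). The count near background was 3 with the limit at the 75th percentile of the receptor genes and 20 with it at the 40th percentile of all genes. Genes near background only in the controls have lower bounds only, which make no allowance for the spread between arrays. The cause of the lost calls was not tested.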
